A study of Mus musculus with 6 samples.

Results

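The genes described here encode the DNA replication machinery, from the proteins that mark and license origins to the helicase, the polymerases, the sliding clamp and its loader. They were taken as 48 named genes, chosen by function, and each was read from the array through the brightest of its probe sets (by mean log2 intensity over the 6 arrays). Of the 48 genes, 47 had a probe set annotated to 1 symbol, out of 18193 genes tested in all, and Chaf1a is not analysed here. RNA came from wild-type C57BL/6 mice, from 2 populations of blood-forming cells separated by flow cytometry, and was amplified and hybridised to Affymetrix mouse expression arrays, with 3 arrays of each. LSK cells (lineage-low, Sca1+, Kit+) hold the blood stem cells together with early progenitors. LK cells (lineage-low, Sca1-, Kit+) are mostly progenitors committed to the myeloid and red cell lines. Both gates took Kit+ cells, no agent other than the lysis buffer is named for either population, and age, tissue and any pooling of animals are not given in the sources used here. Each population is a mixture of cell types at different points of the cell cycle, so in these data a smaller share of cells in S phase and less RNA per cell cannot be told apart.

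Replication begins when the origin recognition complex, with Cdc6 and Cdt1, loads the ring of Mcm2 to Mcm7 onto DNA in G1. The kinase of Cdc7 and Dbf4 then helps to recruit Cdc45 and the GINS complex, which turn the ring into an active helicase, and polymerases copy behind it, held by the clamp Pcna. Many of these genes are transcribed at the G1 to S transition under E2F factors, so their mRNA is commonly read as a sign of cycling cells, and stem cells at the top of the blood hierarchy are known to divide rarely.

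The sort labels were checked against marker genes. Of 6 measured LSK markers, 6 were higher in LSK (log2 differences from 2.23 for Hoxa9 to 4.87 for Mecom), and of 7 LK markers, 6 were lower (Epor did not pass). Markers of mature red cells, B cells, T and NK cells and macrophages had mean log2 intensities over the 6 arrays of at most 3.18, at the low end of the array, although C1qb passed toward LSK from that level. Mature neutrophil genes were present in both populations, with summed linear intensities of 7884 to 11920 in LSK and 6007 to 11620 in LK, and none of the 4 passed (0 also at an unadjusted limma p under 0.05; 3 were higher in LSK with the replicate number as a block). Their part in the replication results was not tested. Array quality also differed: the 3' minus 5' log2 difference of the Actb and Gapdh control probe sets, which grows with 3' bias, averaged 2.64 in the 3 LSK arrays (SD 0.565) against 3.53 in the 3 LK arrays (SD 0.358), and the arrays numbered 2 had the lowest upper quartile of intensity in both populations.

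Of the 47 measured replication genes, 8 were lower in LSK than in LK cells and none higher. Across the set, 43 of the 47 had a log2 difference (LSK minus LK) below 0, with a median of -0.87, whereas the median over all 18193 genes was -0.02 and 53.4% of them were below 0. Cdc6, Mcm10, Timeless, Rfc4, Mcm2, Gins3, Pold1 and Fen1 were lower in LSK by limma at an adjusted p under 0.05 (adjusted p from 0.0169 to 0.0453), by 1.55-fold for Fen1 to 5.29-fold for Mcm10. The 8 of 47 stand beside 2.89% of all genes tested. No replication gene passed toward LSK (0 in limma, beside 3.84% of all genes; 1, Chaf1b, at an unadjusted p under 0.05). At that unadjusted threshold, 4084 of all 18193 genes were found in the same fit, 2174 lower and 1910 higher in LSK.

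The groups did not overlap, with all 3 LK arrays above all 3 LSK arrays, in 28 of the 47 genes (59.6%), against 14.8% of all genes. The reverse order, with LSK above, was seen for Chaf1b alone among the 47, against 13.2% of all genes. Most replication genes are well above the low end of the array, where differences are easier to detect, so the same counts were read among genes with a mean log2 intensity of 5 or more. In the fit of those genes alone, 21 of 40 replication genes were lower in LSK, against 12.5% of 6016 genes, and 26 of the 40 had LK above without overlap, against 26.3%. The median difference of the 6016 genes was -0.11, and 56.6% of them were below 0, against 38 of the 40 replication genes.

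**Figure D1:**
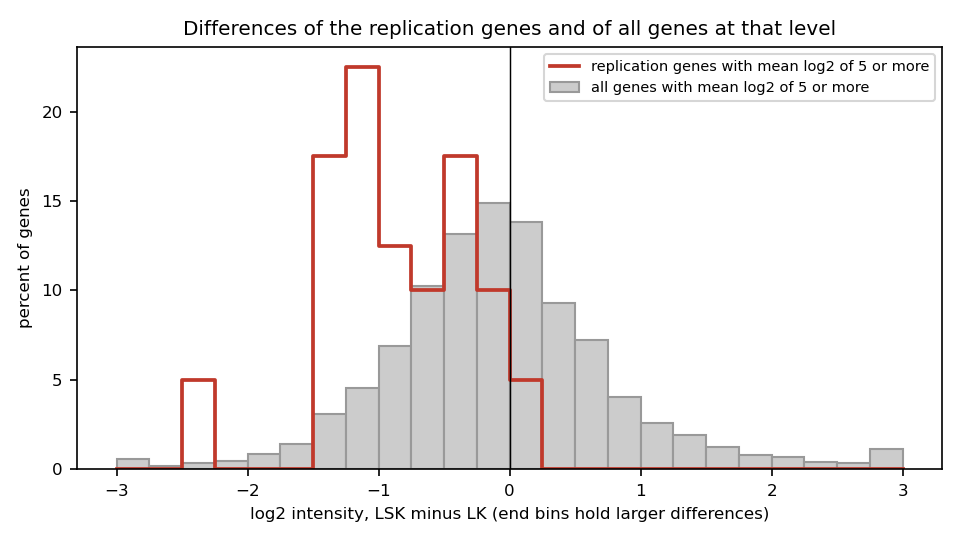
Distribution of the log2 difference, LSK minus LK (horizontal axis), as a percentage of genes (vertical axis), for all 6016 genes with a mean log2 intensity of 5 or more (grey bars) and the 40 replication genes at that level (red line). The replication genes lie mostly left of 0, and the grey bars centre close to 0, with a median of -0.11.

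With the replicate number as a block, 25 replication genes were lower in LSK and 0 higher, against 7.36% and 7.02% of all genes in the same fit. At an unadjusted p under 0.05 there were 33 in either direction, Chaf1b above 0 among them, beside 5215 of all 18193 genes. The 25 hold the 8 above and 17 more, and 11 of the 20 genes without overlap that missed the threshold in the unblocked fit had adjusted p-values between 0.0508 and 0.07. The count of 8 rests on few arrays. It fell to 0 in limma when LSK replicate 1, LK replicate 1 or LK replicate 3 was left out. At an unadjusted p under 0.05 these fits held 28, 23 and 25 replication genes, beside 3339, 3713 and 3134 of all 18193 genes. The count of 8 fell to 1 (Rpa3) when LK replicate 2 was left out. It was 4 on leaving out LSK replicate 2 and 15 on leaving out LSK replicate 3. The median difference lay between -0.99 and -0.65 in these 6 fits, and 38 genes were below 0 in all of them.

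**Figure D2:**
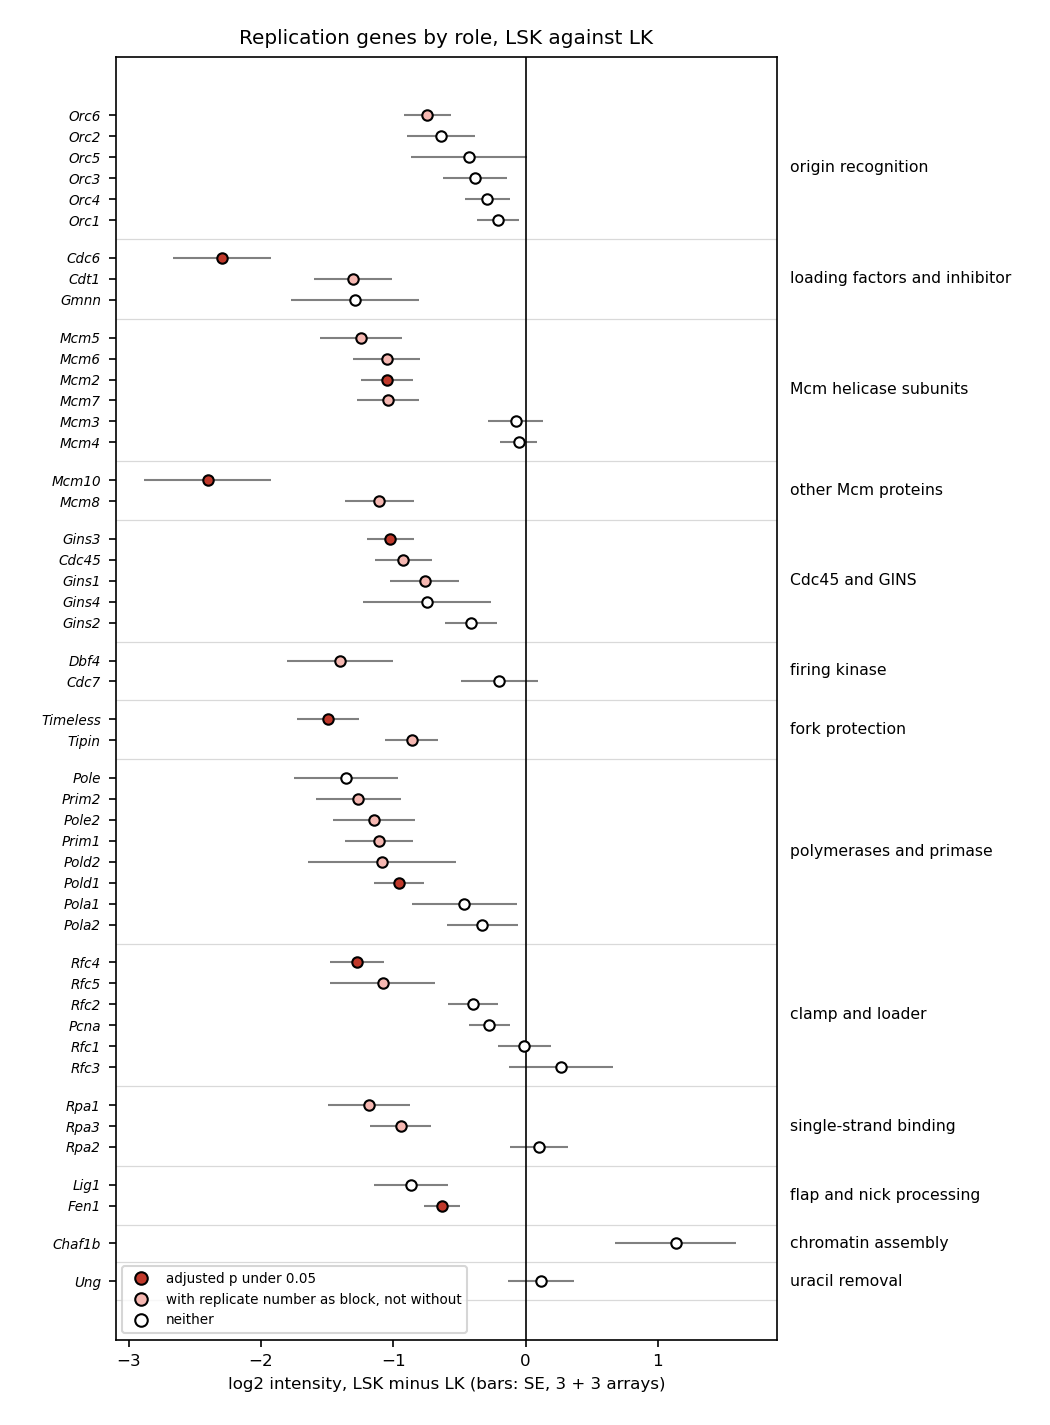
Log2 difference, LSK minus LK, of each of the 47 replication genes (points, with the SE from limma over 3 and 3 arrays as bars), grouped by role. Dark red points passed an adjusted p of 0.05, pale points passed with the replicate number as a block but not without it, and white points passed neither of these fits; 43 points lie left of 0.

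The promoters of these genes were searched for the letters that E2F factors are known to bind, since those factors drive many of them at the G1 to S transition. RefSeq promoters (assembly GRCm38.p6, 250 bases before to 50 after a start) were found for 38 of the 47 genes. The octamers TTTCCCGC, TTTCGCGC, TTTGCCGC and TTTGGCGC, on either strand, occurred in 15 of these 38 genes (39.5%) and in 550 of 14452 genes tested on the array that had a promoter (3.81%). Some sites overlap, because octamers on opposite strands can share bases. The median log2 difference was -1.02 among the 15 genes with an octamer and -0.74 among the 23 without. LK lay above LSK without overlap in 10 of the 15 and 12 of the 23, beside 14.8% of all genes tested. Whether genes with and without an octamer differed was not tested. The letters CCAAT occurred in 22 of 38 replication genes (57.9%) and 42.0% of all, and TTTGAA or TTCGAA in 9 of 38 (23.7%) and 17.5%. The median log2 difference was -0.93 with CCAAT and -0.91 without, and -1.02 with TTTGAA or TTCGAA and -0.87 without. LK lay above LSK without overlap in 12 of 22 genes with CCAAT and 10 of 16 without. For TTTGAA or TTCGAA it did in 6 of 9 and 16 of 29. These differences were not tested either. A match says only that the letters are in the window.

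The sequences below are stretches of 60 or 30 bases around an octamer, 5′ to 3′ on the strand of the gene, with octamers in capitals. Lig1, Mcm8 and Pole2 (without overlap) and Orc1, Orc3 and Rfc3 (with overlap, Rfc3 above 0 at 0.27) also hold octamers and are not shown. The stretches shown are from the other genes that differ without overlap and, last, from Mcm3 and Pola1, which hold octamers although their arrays overlap. Those of Cdc6 (chr11:98907987-98908046, plus strand), Mcm6 (chr1:128359782-128359841, minus strand), Mcm5 (chr8:75109330-75109389, plus strand), Mcm7 (chr5:138172015-138172074, minus strand), Gins3 (chr8:95633492-95633551, plus strand) and Pola1 (chrX:93632260-93632319, minus strand) lie before the annotated start, where the octamer begins 138, 110, 153, 165, 41 and 138 bases ahead of it. Those of Cdt1 (chr8:122568035-122568064, plus strand), Pold1 (chr7:44548766-44548795, minus strand) and Mcm3 (chr1:20820275-20820304, minus strand) lie just after the start.
Cdc6: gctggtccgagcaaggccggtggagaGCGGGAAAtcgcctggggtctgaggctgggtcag
Cdt1: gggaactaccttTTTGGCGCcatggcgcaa
Mcm5: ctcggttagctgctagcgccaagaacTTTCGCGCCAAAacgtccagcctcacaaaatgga
Mcm6: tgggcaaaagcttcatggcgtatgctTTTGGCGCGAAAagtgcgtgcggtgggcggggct
Mcm7: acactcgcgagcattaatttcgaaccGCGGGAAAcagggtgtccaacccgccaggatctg
Gins3: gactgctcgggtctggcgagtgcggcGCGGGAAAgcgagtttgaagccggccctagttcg
Pold1: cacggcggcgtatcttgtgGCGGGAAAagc
Mcm3: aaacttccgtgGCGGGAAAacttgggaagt
Pola1: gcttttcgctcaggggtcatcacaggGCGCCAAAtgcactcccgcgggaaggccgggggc

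Counts by role, here and below, stand beside 2.89% of all genes lower in LSK in the unblocked fit and 7.36% with the block. LK lay above LSK without overlap in 14.8% of all genes, and 4084 of the 18193 had an unadjusted p under 0.05. None of the 6 origin recognition subunits passed in limma (0; 2 at an unadjusted p under 0.05). All 6 lay below 0, and the median log2 difference was -0.40. Orc6, the smallest subunit of the complex, had the largest one. Its log2 intensities were 7.01, 6.55 and 6.89 on LSK arrays 1 to 3 and 7.71, 7.35 and 7.62 on LK arrays 1 to 3. The LK arrays were all above the LSK arrays, with a difference of -0.74 (SE 0.18, adjusted p = 0.0558, 0.0211 with the block). Orc2, Orc3, Orc4 and Orc5 had differences of -0.64, -0.38, -0.29 and -0.43, with overlapping arrays. Other Orc3 probe sets gave 0.62 (SE 0.28) and -1.29 (SE 0.44). Those of Orc4 ranged from -0.74 to 0.83, so the sign of both genes depended on the probe set. Orc1, which binds ATP within the complex, was measured near the low end (mean 3.48, SD 0.25, over 3 LSK arrays and 3.69, SD 0.045, over 3 LK arrays), where folds are compressed.

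Of the 3 genes for loading the helicase, 1 was lower in LSK (2 with the block), beside 2.89% of all genes (7.36% with the block). The median difference of the 3 was -1.30. Cdc6, the ATPase that joins the origin recognition complex in G1, had log2 intensities of 5.71, 5.03 and 6.59 in LSK and 8.14, 8.18 and 7.91 in LK. No LSK array came within 1 log2 unit of the lowest LK array. The difference was -2.30 (SE 0.37), or 4.91-fold, with an adjusted p of 0.0188. Cdt1, which brings the Mcm ring to the origin, had values of 8.77, 8.11 and 9.33 in LSK and 9.91, 10.12 and 10.08 in LK. Its groups did not overlap, and the 2.47-fold difference just missed the threshold (adjusted p = 0.0513, 0.0291 with the block). Gmnn encodes geminin, the inhibitor that holds Cdt1 back after S phase has begun, and read 6.81, 5.03 and 6.87 in LSK and 7.64, 7.34 and 7.60 in LK. LSK replicate 2 was far below the other 2 LSK arrays, and the difference of -1.29 (SE 0.48) did not pass (adjusted p = 0.177, 0.0582 with the block).

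The 6 subunits of the Mcm2 to Mcm7 ring, which act together in equal numbers, had differences from -1.24 to -0.05. Mcm2 had values of 8.36, 7.98 and 8.61 in LSK and 9.44, 9.47 and 9.17 in LK, a difference of -1.05 (SE 0.19) or 2.07-fold (adjusted p = 0.0296). It was the only subunit to pass the unblocked fit. Mcm5 had the largest difference of the ring, with 9.12, 8.30 and 9.57 in LSK and 10.18, 10.28 and 10.25 in LK (-1.24, SE 0.31, adjusted p = 0.0636, 0.0353 with the block). Mcm6 and Mcm7 were close to it, at -1.05 (SE 0.25, adjusted p = 0.0592, 0.0357 with the block) and -1.04 (SE 0.24, adjusted p = 0.0508, 0.0316 with the block), and in all 4 genes every LK array lay above every LSK array. The LK arrays of Mcm5, Mcm6 and Mcm7 lay close together (SD of 0.05, 0.08 and 0.07), whereas their LSK arrays spread more (0.64, 0.50 and 0.46).

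Mcm4 and Mcm3 had overlapping arrays. Mcm4 read 10.85, 10.9999 and 10.68 in LSK and 10.91, 10.98 and 10.80 in LK, with a difference of -0.05 (SE 0.14, adjusted p = 0.87). A second Mcm4 probe set gave -0.11 (SE 0.12). Mcm3 had a difference of -0.08 (SE 0.21, adjusted p = 0.876) on its brightest probe set, and its other 4 probe sets ranged from -0.71 to -0.18. The sign of Mcm4 turned under renewed quantile normalisation, under cyclic loess and on leaving out LSK replicate 3. That of Mcm3 turned under cyclic loess, with array weights and on leaving out LSK replicate 3 or LK replicate 1. Mcm6 also depended on the probe set, since its next brightest gave -0.32 (SE 0.19). The difference between subunits was not tested, because each is read by other probes.

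**Figure D3:**
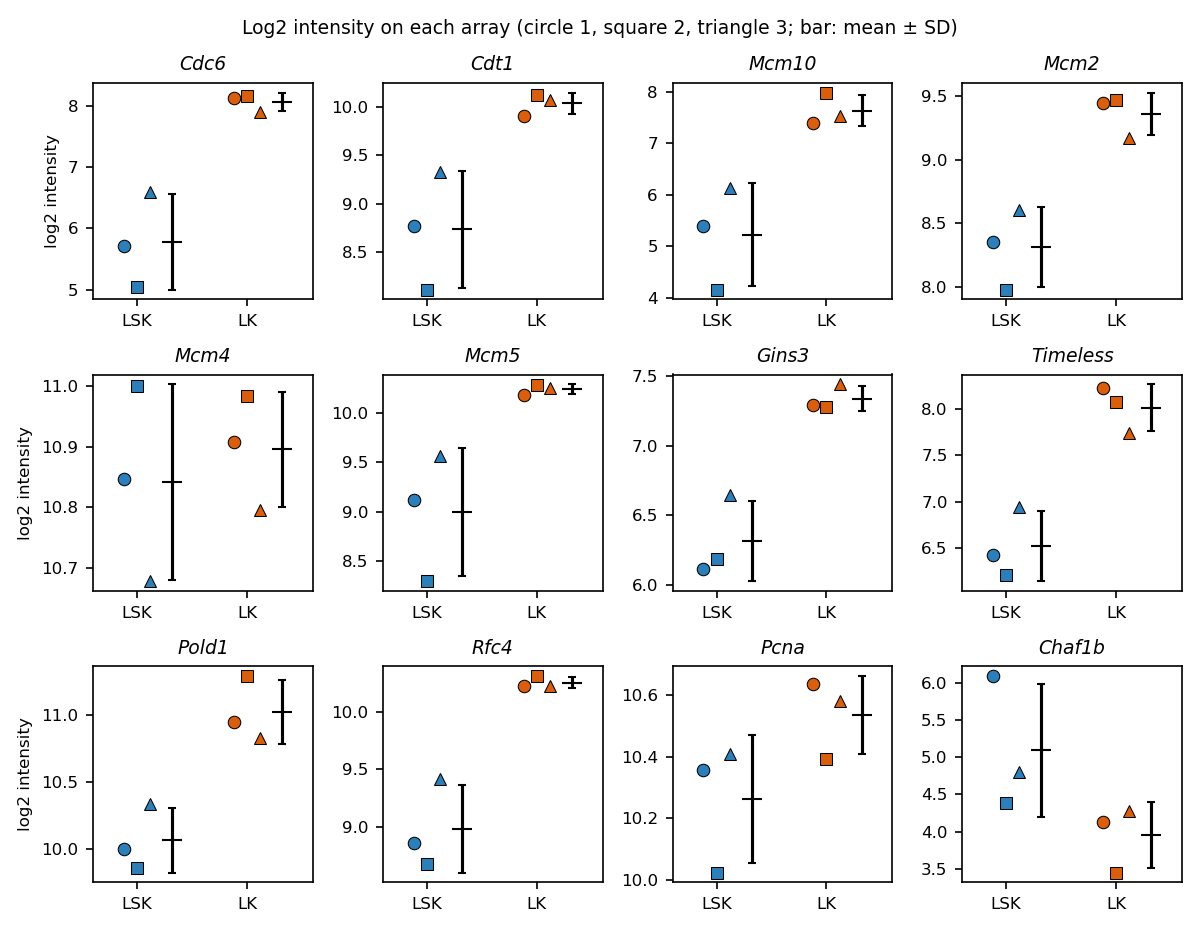
Log2 intensity (vertical axis, with its own range in each panel) of 12 replication genes on the 3 LSK (blue) and 3 LK (orange) arrays, where circle, square and triangle mark replicates 1, 2 and 3 and bars give the mean ± SD. Cdc6, Cdt1, Mcm10, Mcm2, Mcm5, Gins3, Timeless, Pold1 and Rfc4 have all LK arrays above all LSK arrays, Mcm4 and Pcna overlap, and Chaf1b has LSK above LK.

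Outside the ring, Mcm10, which helps the helicase to start and binds polymerase alpha, had the largest difference of all replication genes. Its values were 5.39, 4.16 and 6.13 in LSK and 7.40, 7.98 and 7.52 in LK. The LSK arrays spread over nearly 2 log2 units (SD 0.9951, against 0.30 in LK) but stayed below every LK array, and the difference was -2.40 (SE 0.48, 5.29-fold, adjusted p = 0.0353). A second Mcm10 probe set gave -1.40 (SE 0.28). Mcm8, which acts with Mcm9 in repair by homologous recombination and not in the replication ring, read 3.45, 2.79 and 3.64 in LSK and 4.43, 4.11 and 4.64 in LK (-1.10, SE 0.26, adjusted p = 0.0541, 0.0108 with the block). These levels are at the low end of the range, so the fold is compressed.

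Of the 5 partners that activate the helicase, Gins3 passed in the unblocked fit and 3 with the block, beside 2.89% and 7.36% of all genes. Gins3, a subunit of the 4-part GINS complex, read 6.11, 6.18 and 6.65 in LSK and 7.30, 7.28 and 7.44 in LK. The groups were separated by more than the spread within either, with a difference of -1.02 (SE 0.18, 2.03-fold, adjusted p = 0.0232). Gins1, Gins4 and Gins2 had differences of -0.76, -0.75 and -0.41, of which Gins1 passed with the block (adjusted p = 0.0351). Cdc45, the third part of the active helicase, had a difference of -0.93 at a low level (means of 3.815 and 4.74 in LSK and LK, SD 0.35 and 0.21; adjusted p = 0.0535, 0.0154 with the block).

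The firing kinase has 2 parts, neither of which passed in limma (0; 1 at an unadjusted p under 0.05). Dbf4, the subunit whose level is known to govern the kinase through the cell cycle, read 6.19, 5.38 and 7.08 in LSK and 7.45, 7.66 and 7.74 in LK. All LK arrays were above all LSK arrays, but the LSK arrays spread widely (SD 0.85) and the difference of -1.40 (SE 0.40) did not pass (adjusted p = 0.0913, 0.0402 with the block). Cdc7, the catalytic subunit, had overlapping groups and a difference of -0.20 (SE 0.29, adjusted p = 0.753). The difference between the subunits was not tested.

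Timeless and Tipin encode the pair of proteins that steadies the moving fork. Timeless had the lowest adjusted p of the replication genes, 0.0169, with 6.42, 6.201 and 6.94 in LSK and 8.23, 8.08 and 7.74 in LK (-1.50, SE 0.23, 2.82-fold). Its partner Tipin read 7.62, 7.04 and 7.72 in LSK and 8.34, 8.24 and 8.38 in LK. It too had LK above LSK without overlap, with a difference of -0.86 (SE 0.20, adjusted p = 0.0535, 0.0262 with the block).

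Among the 8 genes of polymerases and primase, 1 was lower in LSK and 5 with the block, beside 2.89% and 7.36% of all genes. All 8 lay below 0 (median -1.10). Pold1, the catalytic subunit of polymerase delta, which copies the lagging strand, read 10.0045, 9.86 and 10.33 in LSK and 10.95, 11.29 and 10.83 in LK. The difference was -0.96 (SE 0.19, 1.94-fold, adjusted p = 0.0352), and the arrays of both groups had similar spreads. Pole, the catalytic subunit of the leading strand polymerase epsilon, had the largest difference of this role, with 5.88, 5.09 and 6.47 in LSK and 7.64, 7.22 and 6.65 in LK. The lowest LK array stood just above the highest LSK array, and the difference of -1.36 (SE 0.39) did not pass (adjusted p = 0.0955, 0.0743 with the block). Its accessory subunit Pole2 had a difference of -1.15, and the primase subunits Prim1 and Prim2, which start each new strand, -1.11 and -1.26. These 3 passed with the block (adjusted p = 0.0105, 0.0485 and 0.0204). Pold2, at a low level and with overlapping groups, passed with the block as well (-1.09, adjusted p = 0.0178). The polymerase alpha subunits that work with primase, Pola1 and Pola2, had overlapping groups (-0.47 and -0.33, adjusted p = 0.566 and 0.544).

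Of the 6 genes of the clamp and its loader, 1 was lower in LSK (2 with the block), beside 2.89% of all genes (7.36% with the block). The median difference of the 6 was -0.34. Rfc4, a small subunit of the clamp loader, was 2.42-fold lower in LSK (8.86, 8.68 and 9.41 against 10.22, 10.31 and 10.23; difference -1.27, SE 0.21, adjusted p = 0.0188). Its LK arrays were almost identical (SD 0.0508). Rfc5, another small subunit, had a difference of -1.08 that passed with the block (adjusted p = 0.169 and 0.0133). Pcna itself, the ring that holds polymerases on DNA, read 10.36, 10.02 and 10.41 in LSK and 10.64, 10.39 and 10.58 in LK. Its groups overlapped narrowly, and the difference was -0.27 (SE 0.16, adjusted p = 0.373, 0.246 with the block). The large subunit Rfc1 had a difference of -0.01 (SE 0.20), with a sign that turned in 6 of the 17 other fits, both renewed normalisations among them, Rfc2 -0.40 (SE 0.19) and Rfc3 0.27 (SE 0.40). None of the 3 passed (adjusted p from 0.287 to 0.986).

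None of the 3 subunits of replication protein A, which coats exposed strands, passed in limma (0; 2 at an unadjusted p under 0.05, and 2 with the block). Rpa1, the large subunit, read 9.55, 8.87 and 10.14 in LSK and 10.82, 10.61 and 10.68 in LK, a difference of -1.18 (SE 0.31, adjusted p = 0.0728, 0.0337 with the block). Rpa3, the small one, had -0.94 (SE 0.23, adjusted p = 0.0607, 0.0156 with the block), and both had LK above LSK without overlap. Rpa2 overlapped and lay slightly above 0 (0.10, SE 0.22, adjusted p = 0.837), and its sign turned without LSK replicate 1 and with the 3' bias covariate described further on.

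Of the 2 enzymes that finish the lagging strand, Fen1 passed and Lig1 did not. Fen1, the nuclease that cuts the flaps of Okazaki fragments, had values of 11.94, 11.61 and 11.84 in LSK and 12.49, 12.41 and 12.37 in LK. The groups did not overlap, and the difference was small (-0.63, SE 0.14, 1.55-fold, adjusted p = 0.0453), although it passed in none of the 6 fits without 1 array (adjusted p up to 0.134). Lig1, the ligase that seals the nicks, read 6.93, 6.03 and 6.97 in LSK and 7.67, 7.57 and 7.28 in LK (-0.87, SE 0.28, adjusted p = 0.125, 0.0824 with the block).

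Chaf1b and Ung had differences above 0, and neither passed. Chaf1b, a subunit of the chromatin assembly factor that places histones behind the fork, read 6.09, 4.38 and 4.80 in LSK and 4.14, 3.45 and 4.28 in LK. It was the only replication gene with every LSK array above every LK array, and LSK replicate 1 was well above the rest. The difference of 1.13 (SE 0.46) did not pass (adjusted p = 0.207, 0.056 with the block), and a second probe set at the low end gave -0.08. Ung, which removes uracil from DNA, read 9.95, 9.47 and 9.08 in LSK and 9.56, 9.4971 and 9.09 in LK (0.12, SE 0.25, adjusted p = 0.84), with overlapping arrays and a sign that turned in some fits.

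Seen array by array, the 3 LSK samples were not equally low. LSK replicate 2 held the lowest of the 6 values for 35 of the 47 genes (74.5%), against 24.9% of all genes and 37.6% of those with a mean log2 of 5 or more. In the 28 genes with LK above without overlap, the lowest value must lie on an LSK array. The share is therefore not independent of the difference between the populations. The mean log2 intensity of the 47 genes was 7.35, 6.75 and 7.46 on LSK arrays 1 to 3 and 8.09, 7.83 and 7.96 on LK arrays 1 to 3, whereas the mean of all genes lay between 4.54 and 4.66 on every array. Each LSK array had a lower mean than each LK array. Without both arrays numbered 2, the median difference was -0.72, 43 of the 47 genes were below 0 and 1, Rpa3, passed. At an unadjusted limma p under 0.05 there were 29 of the 47, beside 3747 of all 18193 genes. The SD was larger in LSK than in LK for 38 of the 47 genes, against 49.9% of all genes, with a median SD of 0.41 in LSK and 0.21 in LK. With that control probe difference, a measure of 3' bias, added as a covariate, the median was -0.63, 43 genes were below 0 and none passed (0 in limma; 25 genes passed on the whole array, all higher in LSK). At an unadjusted p under 0.05 there were 11 of the 47, beside 1730 of all 18193 genes. The covariate itself differed between the populations (means of 2.64 in LSK and 3.53 in LK), so this fit cannot fully separate 3' bias from population. The part of 3' bias in the result was not otherwise tested.

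**Figure D4:**
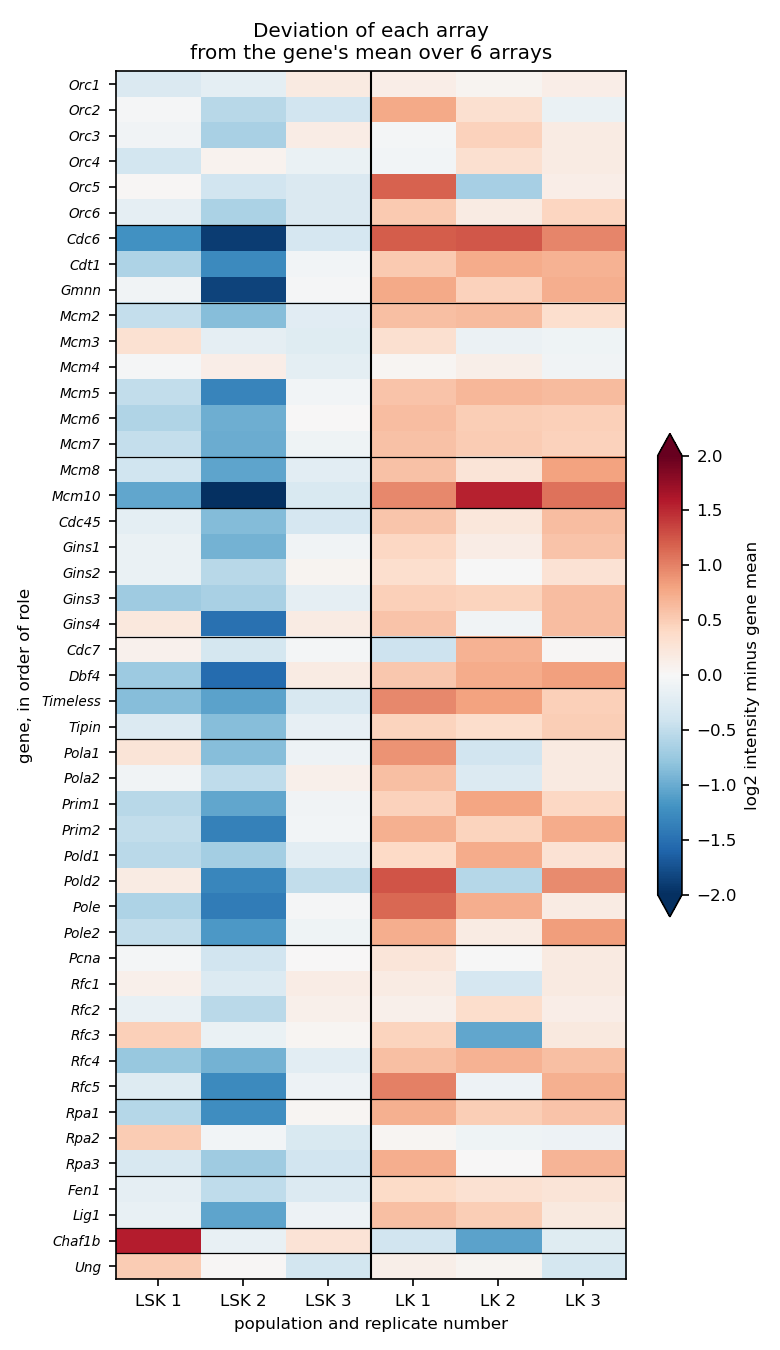
Log2 intensity of each replication gene (vertical axis, in order of role) on each array (horizontal axis, by population and replicate number) minus the gene's mean over the 6 arrays, from -2 (blue) to 2 (red). The LSK arrays are mostly blue, most deeply in LSK replicate 2, and the LK arrays mostly red; Mcm3, Mcm4 and Rfc1 are among the palest genes, and Chaf1b has the reverse colours.

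Other probe sets of the same genes were read as a check within the arrays. Of 19 replication genes with more than 1 probe set at a mean log2 of 4 or more, 16 had all of these on the same side of 0. Those of Orc3, Orc4 and Rfc1 lay on both sides. Of the 8 genes that passed, 7 had further probe sets, 8 in all, of which 5 had a mean log2 of 4 or more. All 8 lay below 0, and 5 did so at an unadjusted limma p under 0.05. Those of Gins3 and Timeless and 1 of Mcm10 were at the low end (means of 3.10, 3.37 and 2.76), and the Gins3 difference was -0.0012. The opposite direction at an unadjusted p under 0.05 was seen for 1 probe set, of Orc4 (difference 0.83, SE 0.21). The brightest Orc4 probe set gave -0.29. For 4 of the 8 (Mcm2, Pold1, Rfc4 and Fen1), the probe set used may also detect other transcripts, by the _s_ or _x_ in its name.

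Other genes of the pathway were read from a further list. Of 37 measured, 7 were lower in LSK, 1 was higher and 29 did not pass (14 lower and 1 higher with the block). The median difference was -0.46. Of all genes tested, 2.89% were lower and 3.84% higher (7.36% and 7.02% with the block). Clspn, the adaptor that links stalled forks to checkpoint signalling, was 3.93-fold lower (5.93, 4.67 and 6.39 against 7.67, 7.69 and 7.55; adjusted p = 0.0402). Ccne1, the cyclin that drives entry into S phase, was 3.75-fold lower (4.89, 4.74 and 4.89 against 7.38, 6.87 and 5.98; adjusted p = 0.0257). Mcm9, the repair partner of Mcm8, was higher in LSK, by 1.99-fold (8.71, 8.40 and 8.13 against 7.76, 7.29 and 7.21; adjusted p = 0.0453), in the direction opposite to Mcm8. Leaving out LSK replicate 1 took the count of 8 to 0 (21 at an unadjusted limma p under 0.05), LSK replicate 2 to 2, LK replicate 1 to 3, and LK replicate 2 or 3 to 1.

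Among 8 measured genes of nucleotide supply, 1 was higher in LSK and 0 lower in limma (3 lower at an unadjusted p under 0.05; median difference -0.50; 1 higher and 1 lower with the block). Of all genes tested, 3.84% were higher and 2.89% lower (7.02% and 7.36% with the block). The listed gene that passed was Rrm2b, the ribonucleotide reductase subunit known to serve cells outside S phase. It read 8.78, 8.79 and 8.39 in LSK and 7.67, 7.60 and 7.705 in LK (1.995-fold, adjusted p = 0.0162 in limma). Rrm2, the subunit used in S phase, had a difference of -0.61 (SE 0.16, adjusted p = 0.0794). The large subunit Rrm1 passed with the block (-1.18, SE 0.33, adjusted p = 0.0839 unblocked, 0.0151 blocked). Rrm2 and Rrm1 were named after their values were seen. Leaving out LSK replicate 1, or LK replicate 3, ended the Rrm2b call (0 genes of the list in limma, 4 at an unadjusted p under 0.05 in each).

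Mitosis genes were read for comparison with a later phase of the cycle. Of 17 measured, 5 were lower, 0 higher (0 also at an unadjusted limma p under 0.05) and 12 did not pass. The median difference was -1.11, with 17 of 17 below 0 and 12 lower with the block. Of all genes tested, 2.89% were lower (7.36% with the block) and 53.4% were below 0. Cenpe, a kinetochore motor, was 3.66-fold lower (5.35, 4.34 and 5.68 against 6.88, 7.11 and 6.98; adjusted p = 0.0263), and the checkpoint kinase gene Bub1 3.44-fold (5.90, 5.23 and 5.87 against 7.33, 7.55 and 7.48; adjusted p = 0.00714). Leaving out LSK replicate 1, LK replicate 1 or LK replicate 3 took the count to 1, LSK replicate 3 to 2 and LSK replicate 2 to 3. Whether the replication and mitosis genes differed from each other was not tested.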

How the data were processed

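The deposited table holds linear intensities per probe set, which the authors made with RMA (affy package, R 2.11.0), per the submitters' processing notes; array files of single probes are not analysed here. RMA aligns the arrays' distributions at the level of single probes before it summarises probe sets, so a shift of all genes cannot be seen. The number of arrays limits the precision. Values were taken to log2 with no pseudocount. Of 45101 probe sets, 64 are controls, 34945 carry 1 gene symbol, 932 several and 9160 are not in the annotation used; RefSeq supplied current symbols (34741 matched). Each of 18193 genes is represented by its brightest probe set.

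The comparison of LSK with LK used lmFit and eBayes (limma 3.58.1, R 4.3.3, two-sided), adjusted by Benjamini-Hochberg over all genes, threshold 0.05; the fit was tested on simulated data. Alternatives covered scaling, the choice of probe set, a level filter, variance settings, the block, 3' bias and left-out arrays. The labels number samples 1 to 3 in both populations and do not state a pairing. Deviations of same-numbered arrays correlated across genes (0.417, 0.433 and 0.273, others at most 0.039), so the numbers were taken to pair them; over the replication genes alone the values were 0.43, 0.157 and -0.033, with different numbers at up to 0.323, so those genes do not themselves show the pairing. The pairing was thus inferred from these same data, and every result with the block depends on it. Nothing says that samples came from separate animals, so the spread may be partly technical. No 2 arrays were identical (0 of 15 pairs). The genes and lists were chosen with earlier results of these data known. In full are given genes past the threshold and the largest difference of each role; in other lists the largest past it. Mcm4, Pcna and other genes given array by array outside this rule were named after their values were seen.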

Additional observations from a re-analysis of the deposited data

How the results depend on the processing

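The count of 8 replication genes past the threshold moved with most choices, and no replication gene passed toward LSK in any of them. It was 25 with the replicate number as a block, 23 with array weights, 21 with genes of a mean log2 of 5 or more only, 20 with quantile normalisation again, 17 with cyclic loess and 15 with trend and robust variances. It was 7 with each probe set tested on its own, 4 with the mean of all probe sets, 4 with probe sets that have no suffix letter (41 genes measured), and 1 when both arrays numbered 2 were left out. The covariate for 3' bias gave 0 (11 at an unadjusted limma p under 0.05). Without 1 array it ranged from 0 to 15. All 8 genes passed with the block, both normalisations, the filter, trend and robust variances and array weights. Of all 18193 genes, 526 were lower in LSK as reported. That all-gene count was 1339 with the block, 1301 with array weights and 821 with quantile normalisation again. It was 687 with cyclic loess, 714 with trend and robust variances, and 749 of 6016 genes with the filter. The median difference of the replication genes, -0.87, lay between -0.90 and -0.63 under the 11 alternatives above and from -0.99 to -0.65 without 1 array.

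Over all genes the count of 1225 was 2617 with the block, 2606 with array weights, 537 without both arrays numbered 2, 25 with the covariate, and 306 to 1269 without 1 array. The other replication genes went from 8 to 15 with the block (0 to 7 without 1 array), nucleotide supply genes from 1 to 2 (0 to 1), and mitosis genes from 5 to 12 (1 to 4). The sign turned in at least 1 fit for 7 of the 43 replication genes below 0. The cause of these moves was not tested. Fewer arrays leave fewer degrees of freedom, and levels under a log2 of 4 are compressed, which limits Orc1, Mcm8, Cdc45, Pold2 and Chaf1b (a mean under 4 in at least 1 population).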
